A study of Rattus norvegicus with 18 samples.

Results

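Collagens, small leucine-rich proteoglycans and other matrix proteins of fibroblasts and vessel walls were followed in the rat brain through loss and recovery of paradoxical (rapid eye movement) sleep. The members were every gene whose platform symbol has the form of a collagen chain (Col, a number, a, a number) and 18 further genes: Dcn, Lum, Ogn, Fmod, Bgn, Aspn, Omd, Prelp, Fn1, Fbln1, Fbln2, Fbn1, Sparc, Lox, Mgp, Postn, Igf2 and Vtn. Only probe sets with a single gene symbol were taken, and each gene was read from its probe set with the highest mean over the pools. This gave 59 genes, 41 of them collagen chains, carried by 87 of the 31099 probe sets on the array and out of 14217 genes with a symbol of their own. Of the 59, 40 passed the filter on dim probe sets and were tested, and 19 did not. The whole set is called the matrix genes here.

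RNA came from male Sprague-Dawley rats of 260 to 300 g that carried electrodes for the electroencephalogram and the electromyogram, with no genetic modification given in the labels. Control rats stayed in their home cage, deprived rats were kept from paradoxical sleep for 78 h on small platforms (the flowerpot method), and recovery rats were deprived for 72 h and then could sleep for 6 h per the sample labels. The treatment description can also be read as 6 h of recovery after the full 78 h, and this was not settled. Each state held 12 rats in 2 sets of 6, and the RNA of a set was pooled separately for the right neocortex and for the right hippocampal formation. Set 1 and set 2 here mean the first and the second set of 6 within a state, so pools of the same set number in different states hold different rats, and no source used here says that they shared a day or a litter. There were thus 12 pools in 6 groups, n = 2 pools a group, and both structures of a pool came from the same 6 rats. Pooling hides the spread between single rats, so p-values measure the spread between pools of 6 animals, with the error of the arrays included.

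Collagens are trimers of chains that wind into a triple helix. Fibrillar collagens (types I, III and V among others) form the fibres of connective tissue, type IV forms the sheet of the basement membrane, and small leucine-rich proteoglycans coat fibrils and set their width and spacing. In the brain, fibrils are made mostly by the fibroblasts of the meninges and of larger vessels, basement membranes surround every vessel, and the space between neurons is filled by another matrix, of hyaluronan and lecticans, with little collagen.

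The start regions of 5 genes are shown because these genes differed between the structures in opposite directions: Col1a2, Ogn and Fmod were lower and Lum and Fbn1 were higher in the hippocampal formation. Each sequence runs from 250 bases before to 50 bases after the start in RefSeq on the rat assembly GRCr8, on the gene's own strand. Capitals mark the letters of the TATA box (TATAAA), the inverted or upright CCAAT box (CCAAT) and the GC box (GGGCGG). These letters were searched on both strands and at any distance from the start. Col1a2 lies at chr4:33518307-33518606 (plus strand), Ogn at chr17:15258946-15259245 (minus), Fmod at chr13:48045317-48045616 (plus), Lum at chr7:34245456-34245755 (plus) and Fbn1 at chr3:133203341-133203640 (minus).
Col1a2: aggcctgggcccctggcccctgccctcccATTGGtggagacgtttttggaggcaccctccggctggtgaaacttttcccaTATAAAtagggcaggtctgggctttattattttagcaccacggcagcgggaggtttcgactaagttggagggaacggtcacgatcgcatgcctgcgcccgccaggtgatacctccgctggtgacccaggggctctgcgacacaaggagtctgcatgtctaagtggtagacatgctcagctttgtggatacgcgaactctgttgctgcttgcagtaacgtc
Ogn: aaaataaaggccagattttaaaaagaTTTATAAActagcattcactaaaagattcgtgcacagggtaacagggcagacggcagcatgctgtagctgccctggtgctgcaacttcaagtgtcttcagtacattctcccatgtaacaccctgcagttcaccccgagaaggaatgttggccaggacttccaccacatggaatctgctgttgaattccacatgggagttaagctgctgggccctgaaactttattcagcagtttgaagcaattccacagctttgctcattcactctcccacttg
Fmod: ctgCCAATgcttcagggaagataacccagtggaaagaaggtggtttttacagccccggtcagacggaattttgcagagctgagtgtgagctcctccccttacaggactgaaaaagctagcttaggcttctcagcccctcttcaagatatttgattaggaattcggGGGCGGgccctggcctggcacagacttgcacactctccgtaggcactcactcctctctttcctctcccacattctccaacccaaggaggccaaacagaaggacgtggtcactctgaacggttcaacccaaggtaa
Lum: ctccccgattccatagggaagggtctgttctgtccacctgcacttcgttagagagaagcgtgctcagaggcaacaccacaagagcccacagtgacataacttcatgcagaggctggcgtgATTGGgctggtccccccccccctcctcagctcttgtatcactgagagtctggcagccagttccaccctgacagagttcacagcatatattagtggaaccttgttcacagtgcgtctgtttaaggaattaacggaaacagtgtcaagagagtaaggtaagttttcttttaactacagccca
Fbn1: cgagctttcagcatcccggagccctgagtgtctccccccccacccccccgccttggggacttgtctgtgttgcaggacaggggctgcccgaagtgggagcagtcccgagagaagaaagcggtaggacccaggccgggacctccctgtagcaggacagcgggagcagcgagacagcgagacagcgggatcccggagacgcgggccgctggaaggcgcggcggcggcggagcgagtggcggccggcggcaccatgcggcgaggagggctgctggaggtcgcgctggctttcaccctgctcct
The Col1a2 window held 1 TATAAA, from base 81 of the window, and 1 CCAAT on the other strand. The Ogn window held TATAAA on both strands in an overlapping stretch, from bases 27 and 29. The Fmod window held CCAAT and GGGCGG, the Lum window CCAAT on the other strand, and the Fbn1 window none of the 3, at a GC content of 70.7% against 46% for Ogn. Windows were matched by symbol for 43 of the 59 genes. Each of the 43 was read from 1 window, at its first listed start, while the 33469 windows of all genes were not cut to 1 per gene. TATAAA was in 6 of the 43 (14%, against 14.2% of all 33469 windows), CCAAT in 11 (25.6%, against 37.5%) and GGGCGG in 22 (51.2%, against 33.1%). These matches describe letters and were not tested.

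Values are log2 of the MAS5 signal of a probe set, so a difference of 1 is a doubling, and levels are compared between pools and never between genes. A gene was called at an adjusted p under 0.05 (limma, Benjamini-Hochberg over all 18625 probe sets tested). The typical absolute difference (median over genes) among the 40 tested matrix genes was 0.20 between repeat arrays of a pool, 0.18 between sleep states within a structure and set, 0.19 between the 2 sets in the neocortex and 0.34 between the 2 sets in the hippocampal formation. It was 0.52 between the structures of an animal pool. Over all tested probe sets the same medians were 0.16, 0.12, 0.18, 0.22 and 0.21. Values are therefore also given within each set number. Known markers of the dissected tissues followed the labels, with 6 of 6 tested markers of hippocampal neurons higher and 5 of 7 markers of neocortical neurons lower in the hippocampal formation (and with the block Fezf2 higher).

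The matrix genes differed between the structures, and most of those that did were lower in the hippocampal formation. Of the 40 tested, 22 were called (55%), against 19.9% of all probe sets tested. The 22 comprised 17 lower genes, against a background of 10.5%, and 5 higher genes, against 9.4%. The median difference, hippocampal formation minus neocortex, was -0.39 over the 40 genes and -0.01 over all probe sets, and it was -0.47 in set 1 and -0.31 in set 2. In 11 of the 40 (27.5%) the 6 pools of 1 structure did not overlap with the 6 of the other, against 13.5% of all probe sets. With the set of rats as a block 30 matrix genes were called, 24 lower and 6 higher, against 43% of all probe sets, and the 30 included all 22.

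Several of the largest called differences were those of fibril-forming chains. Col3a1, the chain of type III collagen, ranged from 6.05 to 7.45 (median 6.95) in the 6 neocortical pools and from 4.84 to 5.38 (median 5.32) in the 6 hippocampal pools. The groups did not overlap, and the difference was -1.60 ± 0.13 (limma's SE over the 6 animal pools, as after every ± between the structures), or 3.03-fold lower (adjusted p = 0.000318, limma). Col1a1, which together with Col1a2 makes type I collagen, ranged from 5.41 to 6.36 (median 5.90) in the neocortex and from 3.45 to 5.44 (median 4.81) in the hippocampal formation. Here 1 hippocampal control pool lay just above the lowest neocortical pool, and all 6 animal pools were lower in the hippocampal formation (-1.30 ± 0.20, adjusted p = 0.00553). Its second tested probe set gave -0.81 (adjusted p = 0.00628).

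Col1a2 read 7.46 and 7.23 in the control neocortex (set 1, then set 2, as in every list of pools here), 7.25 and 7.09 after deprivation and 7.03 and 7.19 after recovery. In the hippocampal formation it read 6.14 and 5.92, 5.96 and 5.28, and 5.52 and 5.90 in the same order. Every neocortical pool was above every hippocampal pool, with a difference of -1.42 ± 0.09 (2.67-fold lower, adjusted p = 0.00014) and -1.28 from its other probe set (adjusted p = 0.000493). Its start region, printed above, is the one of the 5 that holds both TATAAA and CCAAT. Col24a1, a fibrillar chain of developing bone, ranged from 4.85 to 5.19 in the neocortex and from 3.15 to 4.18 in the hippocampal formation without overlap (-1.28, adjusted p = 0.00438). Its hippocampal mean of 3.75 lay under the filter level of 4.30, so the size of that difference is not settled. Col5a1, which starts fibril assembly, differed by -0.67 ± 0.16 (adjusted p = 0.0253), by -1.0 in set 1 and by -0.34 in set 2.

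Not all fibrillar chains followed. Col5a2, a partner chain of Col5a1 in type V collagen, read 6.76 and 6.48, 6.49 and 6.20, and 6.34 and 6.45 in the control, deprived and recovery neocortex. It read 6.66 and 6.76, 6.59 and 6.93, and 6.65 and 7.03 in the hippocampal formation. The hippocampal pools were thus higher in 5 of 6 animal pools, and the difference of 0.32 missed the threshold (adjusted p = 0.0786) but passed with the block (adjusted p = 0.00224) and in the second probe set (0.33, adjusted p = 0.0303). Of the 10 tested fibrillar chains 5 were called lower and 0 higher (50%, against 19.9% of all probe sets). With the block 7 were lower and 1 higher (80%, against 43%). Col11a1 and Col11a2 differed by -0.36 and -0.29 and passed only with the block (adjusted p = 0.0391 and 0.00668), while Col27a1 (-0.42) and Col5a3 (0.23) passed in neither fit. Col2a1, the cartilage collagen, stayed under the filter.

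Of the 5 tested basement membrane collagens 1 was called lower (20%, near the 19.9% of all probe sets) and 0 higher. With the block 2 were lower (40%, near the 43% of all probe sets). Col4a5 read 6.81 and 6.44, 6.96 and 6.50, and 6.78 and 6.38 in the neocortex and 6.53 and 6.51, 6.61 and 6.38, and 6.57 and 6.56 in the hippocampal formation. Col4a1, a chain of the basement membrane around every vessel, read 6.30 and 5.85, 6.14 and 6.03, and 6.23 and 5.94 in the neocortex and 6.05 and 6.15, 5.98 and 5.88, and 5.90 and 6.03 in the hippocampal formation. In both genes the structures overlapped, and neither Col4a5 (-0.12 ± 0.09), Col4a1 (-0.09 ± 0.10) nor Col4a2 (-0.04 ± 0.13) was called (adjusted p = 0.376, 0.584 and 0.848). The second probe set of Col4a1 had the opposite sign (0.08, adjusted p = 0.607). Col15a1, a collagen at the border between basement membrane and interstitium, was the called gene (-0.76, adjusted p = 0.0409), with a hippocampal mean of 3.96 under the filter level and a control set 1 pool at 2.78. Col18a1, the source of endostatin, differed by -0.44 and passed only with the block (adjusted p = 0.0209). Col4a4 and Col4a6 stayed under the filter.

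Col6a1 and Col6a3, the tested chains of type VI collagen, which forms beaded filaments next to basement membranes, were lower in the hippocampal formation. Col6a1 read 6.10 and 6.63, 6.15 and 6.34, and 6.29 and 6.36 in the neocortex and 4.92 and 6.13, 5.46 and 5.63, and 5.65 and 5.99 in the hippocampal formation. All 6 animal pools had the lower value in the hippocampal formation, although the control pool of set 2 there lay above the control pool of set 1 in the neocortex (-0.68 ± 0.11, adjusted p = 0.00597). Col6a3 differed by -0.79 ± 0.14 (adjusted p = 0.00901), with a hippocampal mean of 4.15 under the filter level. Col8a2, a network-forming collagen of vessel walls and of the cornea, read 5.51 and 5.38, 5.78 and 5.37, and 5.64 and 5.35 in the neocortex and 5.23 and 5.05, 5.78 and 4.75, and 5.11 and 4.86 in the hippocampal formation. The deprived pool of set 1 was level with its neocortical partner, and the difference of -0.37 passed only with the block (adjusted p = 0.0571 without it and 0.0134 with it). The 7 other measured chains of this group stayed under the filter: Col6a2, Col6a5, Col6a6, Col7a1, Col8a1, Col10a1 and Col26a1. Of the type VI chains among them, Col6a5 (-0.84) was lower in 6 animal pools, Col6a6 (-0.63) in 5 and Col6a2 (-0.28) in 3 of 6.

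Among the fibril-associated collagens, which sit on the surface of fibrils, 1 of 5 tested was called lower (20%, near the 19.9% of all probe sets) and 0 higher, and with the block 3 of 5 (60%, against 43%). Col19a1, which neurons also make, ranged from 6.36 to 7.00 (median 6.58) in the neocortex and from 5.27 to 6.43 (median 5.89) in the hippocampal formation. It was lower there in all 6 animal pools (-0.74 ± 0.10, adjusted p = 0.00244). Col16a1 read 6.66 and 6.68, 6.76 and 6.85, and 6.76 and 6.65 in the neocortex and 5.80 and 6.67, 6.21 and 6.58, and 6.45 and 6.78 in the hippocampal formation. The set 1 pools carried its difference of -0.31 (-0.57 in set 1 and -0.05 in set 2), which passed only with the block (adjusted p = 0.124 without it and 0.00428 with it). Col9a3 read 6.38 and 6.26, 6.24 and 6.34, and 6.36 and 6.27 in the neocortex and 6.37 and 6.61, 6.74 and 6.38, and 6.50 and 6.47 in the hippocampal formation, a difference of 0.20 that was not called (adjusted p = 0.159). Col12a1 differed by -0.46 and passed only with the block (adjusted p = 0.0171), Col9a2 differed by -0.13 and passed in neither fit, and Col9a1, Col14a1, Col20a1 and Col22a1 stayed under the filter.

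The transmembrane collagens split. Col25a1, made by neurons and known as the precursor of a component of amyloid plaques, read 7.24 and 7.66 in control, 7.52 and 7.80 in deprived and 7.67 and 7.97 in recovery neocortex. In the hippocampal formation it read 8.18 and 8.86, 8.33 and 8.80, and 8.54 and 8.98. Every hippocampal pool was above every neocortical pool, with a difference of 0.97 ± 0.06 (1.96-fold higher, adjusted p = 0.000153), the largest positive difference among the tested matrix genes. Col23a1 read 4.86 and 4.67, 5.08 and 4.83, and 4.85 and 4.83 in the neocortex and 4.55 and 4.44, 3.69 and 4.09, and 4.48 and 4.84 in the hippocampal formation. The recovery pools of set 2 were level, and the difference was -0.51 ± 0.14 (adjusted p = 0.0473). Col13a1 and Col17a1 stayed under the filter. Col13a1 was nevertheless lower in all hippocampal pools (2.0 to 2.94) than in any neocortical pool (3.45 to 4.43), a description without a test, since both ranges reach into dim signal.

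**Figure D1:**
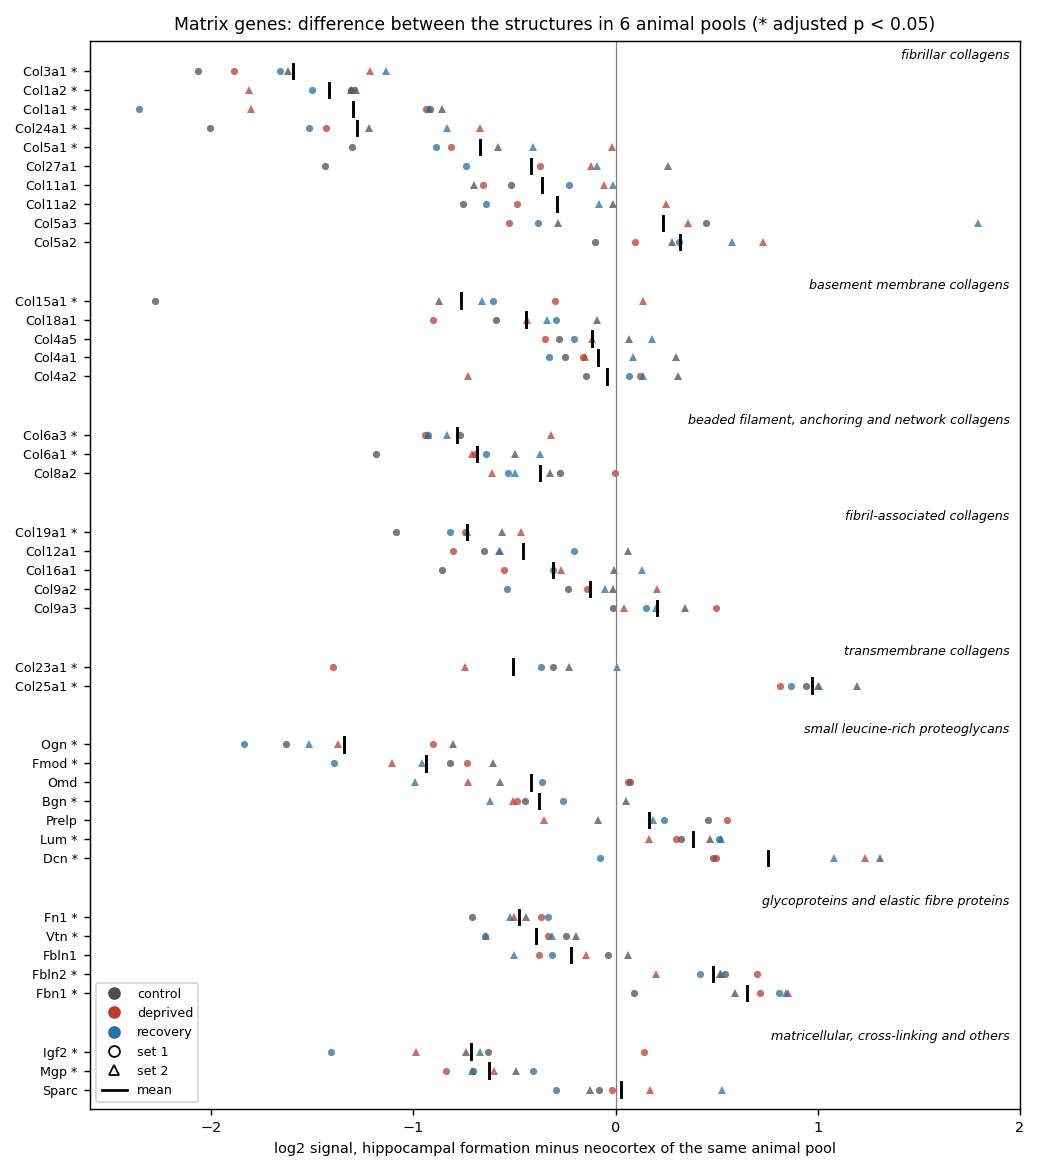
Difference in log2 signal between the hippocampal formation and the neocortex of the same animal pool (horizontal axis) for the 40 tested matrix genes, grouped by role; circles are set 1, triangles set 2, colours the sleep state, the bar the mean of 6 animal pools, and an asterisk an adjusted p under 0.05. Col3a1, Col1a2, Col1a1 and Ogn lie left of 0 in all 6 animal pools, the type IV chains straddle 0, and Col25a1 and Fbn1 lie right of 0 in all 6.

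The small leucine-rich proteoglycans differed in both directions. Ogn (osteoglycin, or mimecan) read 7.68 and 7.58, 7.69 and 7.57, and 7.37 and 7.38 in the neocortex and 6.05 and 6.78, 6.79 and 6.20, and 5.53 and 5.86 in the hippocampal formation. The neocortical pools lay close together and every one was above all hippocampal pools, which spread over more than 1 log2 unit (-1.34 ± 0.12, 2.54-fold lower, adjusted p = 0.000575). Its other 3 probe sets, all tested, differed by -1.23, -1.35 and -1.85 and were all called. Fmod (fibromodulin), which binds type I collagen, ranged from 6.13 to 6.31 in the neocortex and from 4.82 to 5.6 in the hippocampal formation, again without overlap (-0.94 ± 0.10, adjusted p = 0.00117). Bgn (biglycan) differed less (-0.38 ± 0.10, adjusted p = 0.0359), with overlapping pools.

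Dcn (decorin) went the other way. It read 7.17 and 6.55, 7.18 and 6.54, and 7.19 and 6.85 in the neocortex and 7.65 and 7.85, 7.67 and 7.78, and 7.11 and 7.93 in the hippocampal formation. The recovery pool of set 1 was the 1 animal pool in which the hippocampal formation was not higher, and the difference was 0.30 in set 1 and 1.21 in set 2 (mean 0.75 ± 0.18, adjusted p = 0.0289). Lum (lumican), another small leucine-rich proteoglycan that coats collagen fibrils, ranged from 5.73 to 6.07 (median 5.91) in the neocortex and from 6.07 to 6.43 (median 6.24) in the hippocampal formation. It was higher there by nearly the same amount in each set (0.38 and 0.39, adjusted p = 0.0137). Prelp (0.17) and Omd (-0.42) were not called, Omd passing only with the block (adjusted p = 0.00842), and Aspn stayed under the filter.

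In the gene order of GRCr8, several matrix genes are neighbours with no other protein-coding gene between them. Dcn and Lum are such a pair and were both called higher. Ogn and Omd are a pair in which both values were negative (-1.34 and -0.42) and Ogn alone was called. Prelp and Fmod are a pair of opposite sign (0.17 and -0.94), as are Col3a1 and Col5a2 (-1.60 and 0.32). Prelp and Col5a2 were not called. All other such pairs had values of the same sign. They are Col4a2 and Col4a1, Omd and Aspn, Col6a1 and Col6a2, Col6a6 and Col6a5, and Col9a1 and Col19a1. Of these genes Aspn, Col6a2, Col6a5, Col6a6 and Col9a1 were not tested.

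Of the glycoproteins and elastic fibre proteins 5 were tested, and 2 were called in each direction (80%, against 19.9% of all probe sets). The counts with the block were the same (80%, against 43%). Fn1 (fibronectin), the matrix protein that cells bind through integrins, read 7.28 and 7.00, 7.24 and 7.20, and 7.29 and 7.19 in the neocortex and 6.57 and 6.56, 6.87 and 6.69, and 6.95 and 6.67 in the hippocampal formation. Vtn (vitronectin), made by pericytes in the brain, read 6.52 and 6.52, 6.57 and 6.64, and 6.56 and 6.67 in the neocortex and 6.28 and 6.33, 6.24 and 6.00, and 5.92 and 6.36 in the hippocampal formation. Both were lower in every hippocampal pool, Fn1 by 1.40-fold (adjusted p = 0.00445) and Vtn by 1.32-fold (adjusted p = 0.0175). Fbn1 (fibrillin-1), the scaffold of elastic microfibrils, ranged from 5.31 to 5.62 in the neocortex and from 5.71 to 6.32 in the hippocampal formation without overlap (0.65 ± 0.10, adjusted p = 0.00432), and its second probe set gave 0.93 (adjusted p = 0.00311). Fbln2 (fibulin-2), which binds fibrillin and basement membrane proteins, was higher in all 6 animal pools (0.48 ± 0.09, adjusted p = 0.0113), with ranges of 5.56 to 6.09 and 6.08 to 6.63 that overlapped narrowly. Fbln1 (-0.22) was not called.

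Postn (periostin), a protein of collagen-rich tissue, showed the largest mean difference of all 59 genes and could not be tested, because its mean over the pools lay under the filter. It ranged from 5.04 to 5.46 (median 5.29) in the neocortex and from 1.73 to 3.99 (median 2.88) in the hippocampal formation. The pools did not overlap, and since the hippocampal mean of 2.80 is dim, the difference of -2.46 has no settled size. Of the 19 genes under the filter, 16 had a lower hippocampal mean, with a median difference of -0.63. Over all 59 genes 46 had a lower hippocampal mean, and the median was -0.42.

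The remaining members are secreted proteins of different kinds. Sparc, a collagen-binding protein that is no structural part of fibrils, read 8.64 and 8.80, 8.62 and 9.03, and 8.73 and 8.87 in the neocortex and 8.56 and 8.67, 8.61 and 9.20, and 8.44 and 9.4 in the hippocampal formation. It did not differ detectably between the structures (0.03 ± 0.10, adjusted p = 0.862), and its second probe set gave 0.29 (adjusted p = 0.079). Igf2, a growth factor of the leptomeninges and the choroid plexus, read 8.33 and 7.95, 8.11 and 7.54, and 8.16 and 7.63 in the neocortex and 7.69 and 7.21, 8.25 and 6.55, and 6.75 and 6.96 in the hippocampal formation. It was lower in 5 of 6 animal pools (-0.72 ± 0.16, adjusted p = 0.0198), the exception being the deprived pool of set 1. Mgp (matrix Gla protein), an inhibitor of calcification, ranged from 7.55 to 8.32 in the neocortex and from 7.04 to 7.52 in the hippocampal formation (-0.63 ± 0.07, adjusted p = 0.00144). Lox, the enzyme that starts collagen cross-links, stayed under the filter, with means of 4.23 and 3.54 in the neocortex and the hippocampal formation.

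**Figure D2:**
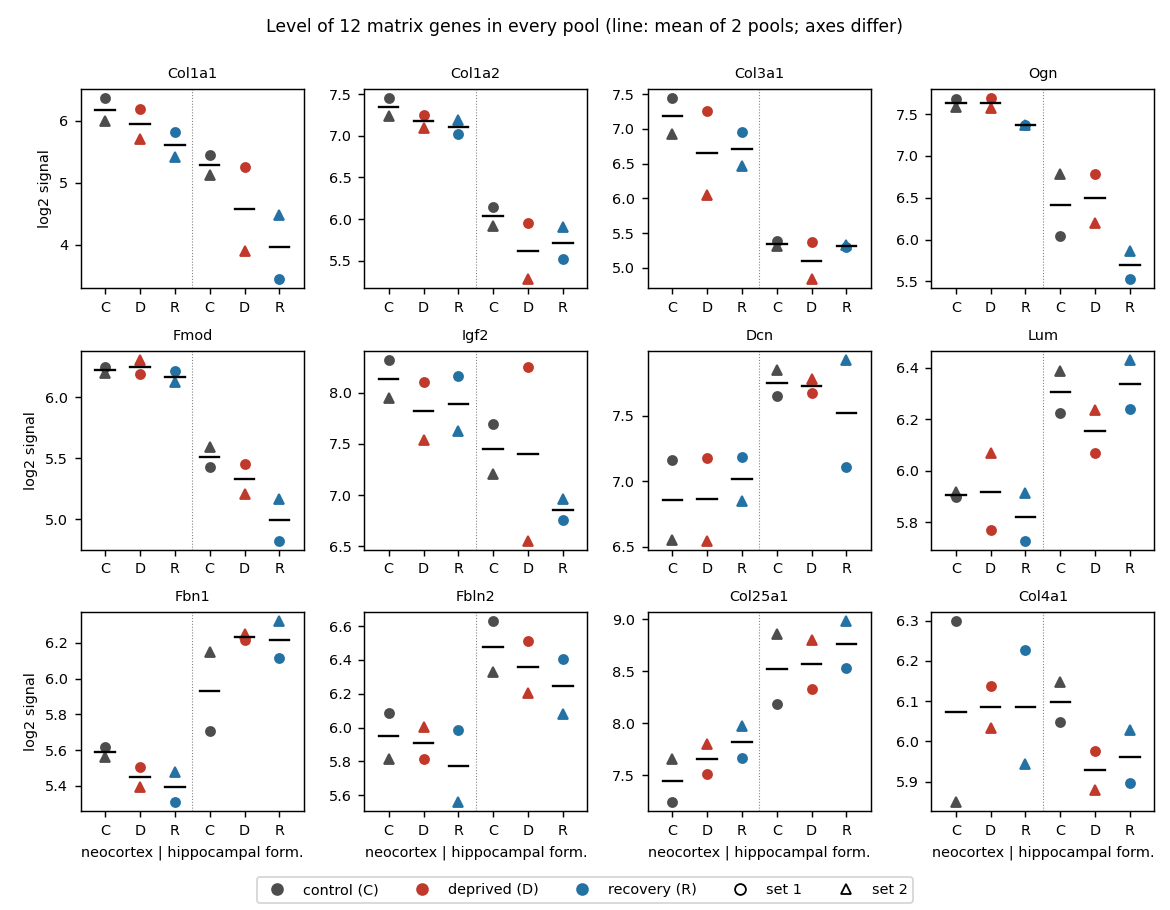
Log2 signal (vertical axis, a separate range for each gene) of 12 matrix genes in every pool, for control (C), deprived (D) and recovery (R) rats in the neocortex (left of the dotted line) and the hippocampal formation (right); circles are set 1, triangles set 2, and the line is the mean of the 2 pools. Col1a2, Col3a1, Ogn and Fmod are lower in every hippocampal pool than in any neocortical pool, Fbn1 and Col25a1 are higher in every hippocampal pool, and the pools of Col4a1 overlap.

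These calls did not all rest on every pool. Of the 22 called genes 12 kept their call under each alternative that gave them a test, 13 for Col24a1 and 14 for the other 11: Col19a1, Col1a1, Col1a2, Col24a1, Col25a1, Col3a1, Col6a1, Fbn1, Fmod, Fn1, Mgp and Ogn. Col23a1 lost its call in 9 of 13 alternatives, Col15a1 in 7 of 13, Bgn in 6 of 14 and Dcn in 5 of 14. Col5a1 lost it in 3 of 13, Vtn in 3 of 14, Lum in 2 of 14, and Col6a3, Fbln2 and Igf2 in 1 each. Without the deprived rats of set 1, Bgn, Col15a1, Col23a1, Col5a1, Col6a3, Dcn, Fbln2 and Lum lost their call. That fit leaves 1 animal pool of deprived rats. The share of all probe sets called in it is not given, so these losses have no background. Over the alternatives with a test the highest adjusted p was 0.131 for Bgn, 0.172 for Col15a1, 0.2 for Col23a1, 0.111 for Col5a1, 0.0564 for Col6a3, 0.0941 for Dcn, 0.0555 for Fbln2 and 0.0767 for Lum. Without the recovery rats of set 1, Igf2 (highest adjusted p 0.0832) and Vtn (0.0834) also missed the threshold.

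Genes that make, bind or cut collagen were divided. Counts of called genes in these and the following lists are read against 19.9% of all probe sets, and those with the block against 43%. Of 15 tested genes of collagen processing 3 were called lower and 2 higher, with a median of 0.03 (4 and 2 with the block, which added Serpinh1). P4ha3, a subunit of the prolyl hydroxylase that stabilises the triple helix, differed by -1.62 (adjusted p = 0.00369) and Pcolce, which speeds the trimming of procollagen, by -0.92 (adjusted p = 0.014), both with hippocampal means under the filter level. Ppib, a collagen-folding isomerase of the endoplasmic reticulum, was higher (0.39, adjusted p = 0.00595). Of 11 laminins, nidogens and related basement membrane genes 4 were lower and 0 higher, led by Lama4, a laminin chain of vessels (-0.67, adjusted p = 0.0104), and the block added Nid1 as lower and Lama2 as higher. Of 7 collagen receptors and integrins 2 were lower, among them Itgav (-0.78, adjusted p = 0.00048), and Cd44, the hyaluronan receptor, was higher (0.51, adjusted p = 0.035); the block added Itgb5 as lower and Ddr1 as higher. Of 13 proteases and inhibitors Timp1, an inhibitor of metalloproteinases, was the 1 called gene (-0.84, adjusted p = 0.0053). With the block 6 of the 13 were called, 5 lower (also Timp2, Timp3, Mmp17 and Reck) and Mmp16 higher.

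The matrix of the neural parenchyma was called in the opposite direction from the fibrillar collagens. Of 11 tested genes 4 were higher and 0 lower in the hippocampal formation, with a median of 0.21. With the block 7 were higher (also Ncan, Tnr and Ptprz1) and 1 was lower, the secreted guidance protein Reln (-0.14, adjusted p = 0.0123). Hapln4, a link protein of perineuronal nets, was higher by 1.0 (adjusted p = 9.4e-05), Hapln1 by 0.46 (adjusted p = 0.00897) and Vcan, the proteoglycan versican, by 0.33 (adjusted p = 0.031). In the TGF-beta pathway, which drives collagen transcription, 2 of 11 were lower and 1 higher, and with the block 3 were lower (also Smad2) and 4 higher (also Tgfbr1, Smad3 and Smad4). Its target Ccn2 differed by -0.88 (adjusted p = 0.000868) and its ligand Tgfb3 by 0.62 (adjusted p = 0.0357).

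Markers of fibroblasts of the meninges were lower in the hippocampal formation along with the fibrillar collagens. Of 19 listed markers on the array 12 were tested, 8 were called lower and 0 higher, with a median of -0.66, and the block added Slc13a3 as lower. Crabp2, a retinoic acid binding protein, differed by -1.25 (adjusted p = 0.0013), Aldh1a2, which makes retinoic acid, by -1.14 (adjusted p = 0.00223) and Nupr1 by -1.04 (adjusted p = 0.00112). The mean of the 12 markers lay between 6.75 and 6.91 in the neocortical pools and between 6.08 and 6.49 in the hippocampal pools. The markers that were not tested lay under the filter on dim probe sets, the dimmest being Dpep1 at 2.54 in the neocortex and 1.85 in the hippocampal formation. Whether the meninges were stripped before dissection is not given in the sources used here, and the part of meningeal tissue in the differences was not tested. In pooled bulk tissue fewer cells of a type and less RNA per cell cannot be told apart.

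Markers of other cells were read in the same way. Of 13 endothelial markers 4 were lower and 0 higher (median -0.24), with a list mean of 6.55 to 6.68 in the neocortical and 6.25 to 6.44 in the hippocampal pools, and of 9 markers of pericytes and smooth muscle Myh11 was the 1 called gene (-0.44, adjusted p = 0.0195). With the block 6 endothelial markers (also Abcb1a and Ocln) and 2 of pericytes and smooth muscle (also Rgs5) were lower. Of 6 tested choroid plexus markers Calml4 was called higher (2.35, adjusted p = 0.000983), from a neocortical mean of 3.41 under the filter level. The choroid plexus mean ranged from 4.92 to 6.86 in the neocortical pools and from 5.84 to 8.03 in the hippocampal pools. The 8.03 belonged to the deprived pool of set 1. Of 3 red cell markers 0 were called, and of 6 astrocyte markers Gfap was (0.48, adjusted p = 0.000607), joined with the block by Slc1a3, Slc1a2 and Aldh1l1, all higher. The part of these cells in the values was not tested.

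**Figure D3:**
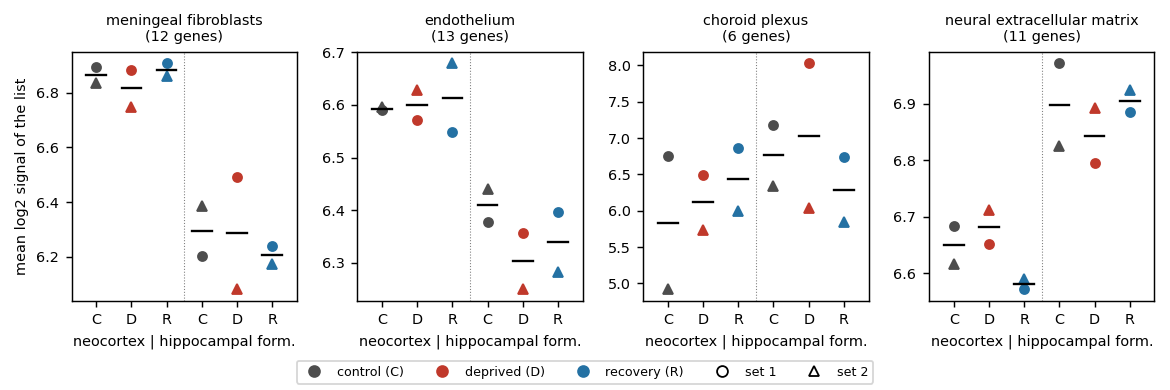
Mean log2 signal (vertical axis, a separate range in each panel) of 4 marker or companion lists in every pool, for control (C), deprived (D) and recovery (R) rats in the neocortex (left) and the hippocampal formation (right); circles are set 1, triangles set 2, and the line is the mean of the 2 pools. The meningeal and endothelial lists are lower in every hippocampal pool, the neural matrix list is higher in every hippocampal pool, and the choroid plexus list spreads within groups, up to 8.03 in 1 deprived hippocampal pool.

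Pools of set 2 and set 1 of the same state were compared as a description. In the hippocampal formation 15 of the 40 genes (37.5%) were higher in set 2 in all 3 states, against 29.8% of all probe sets, and 10 (25%) were lower in all 3, against 28.5%, so neither share lay far from that of all probe sets. Col27a1 was higher in set 2 by 1.0 on average and Col11a2 by 0.80, while Omd differed by -0.58 and Mgp by -0.34. In the neocortex 6 genes (15%, against 27.8%) were higher and 11 (27.5%, against 25%) lower in set 2 in all 3 states. The choroid plexus list was lower in set 2 in both structures, by -1.16 in the neocortex and -1.24 in the hippocampal formation, and the neocortical neuron list was higher in the hippocampal pools of set 2 by 0.28. The part of these lists in the set differences was not tested.

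**Figure D4:**
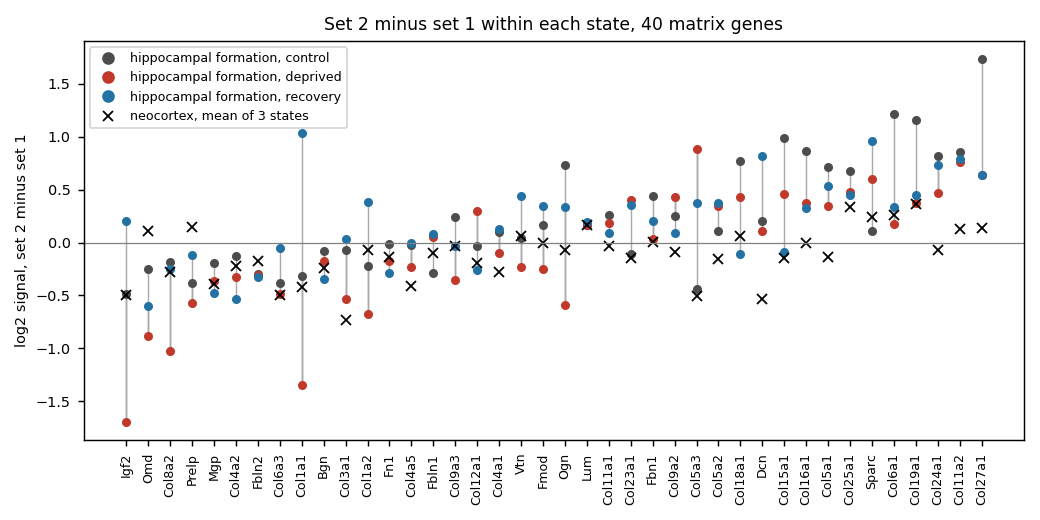
Difference in log2 signal between set 2 and set 1 (vertical axis) for the 40 tested matrix genes, ordered by their hippocampal mean; dots are the 3 hippocampal states, joined by a line, and crosses the mean of the 3 neocortical states. Igf2 and Col1a1 span more than 1 log2 unit between states, whereas Col11a2 is higher in set 2 by a similar amount in every state.

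Loss of paradoxical sleep was the question of the study, and no matrix gene was called in any comparison of sleep states. With limma 0 of 18625 probe sets (0%) passed in any of the 6 comparisons, and with the set as a block 2 passed for deprived against control (0.0107%) and 1 for recovery against deprived (0.00537%) in the neocortex, none of them a matrix gene, and 0 elsewhere. At an unadjusted p under 0.05 the matrix genes numbered 0 of 40 in each neocortical comparison and 2, 3 and 3 in the hippocampal formation (deprived against control, recovery against control, recovery against deprived). All probe sets under that p numbered 207, 209 and 169 of 18625 in the neocortex and 204, 282 and 301 in the hippocampal formation. As a share, the matrix genes lay below all probe sets in each neocortical comparison. They lay above, through 2 or 3 genes, in each hippocampal one. With the block the matrix genes under that p numbered 4, 2 and 0 in the neocortex and 2, 7 and 5 in the hippocampal formation, and all probe sets 1070, 1078 and 849 and 1106, 1363 and 1334. The matrix share was then higher for deprived against control neocortex and for both hippocampal recovery comparisons, and lower elsewhere. The comparisons within a structure share their pools, and the control pools in particular, so they are not independent of each other. The median change of the 40 genes was 0.01, -0.05 and -0.06 in the neocortex and 0.03, -0.04 and -0.01 in the hippocampal formation, in the same order.

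After deprivation the neocortical fibrillar collagens all had lower means than in control, with no gene past the test. The change was negative in 10 of 10 (median -0.22), from -0.09 for Col11a1 to -0.53 for Col3a1. Over the 40 matrix genes it was negative in 18 and positive in 22. In all 7 tested small leucine-rich proteoglycans the mean change was positive, but with a median of 0.02, against 0.20 between repeat arrays. Several of them, among them Ogn, Fmod, Bgn and Lum, changed sign between the sets. Genes read in the same pools are not independent of each other, and Col11a1 changed sign between the sets. Col3a1 read 7.45 and 6.93 in control and 7.26 and 6.05 after deprivation, Col5a1 read 5.96 and 5.95 against 5.73 and 5.28, and Col5a2 read 6.76 and 6.48 against 6.49 and 6.20. Both sets were lower in each of these genes, and only for Col5a1 did the pools not overlap (adjusted p = 1 for all 3). Omd had the smallest p among the genes with a positive change (0.40, from 4.79 and 5.18 to 5.43 and 5.34), and Col6a3 differed by -0.40 through set 2 alone (-0.85, against 0.04 in set 1). Pools did not overlap in 9 of 40 genes (22.5%), against 24.5% of all probe sets.

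After recovery the neocortical fibrillar chains were below control in 9 of 10 (median -0.25), a comparison that shares its control pools with the one before. Over the 40 matrix genes 24 were below control and 16 above. Col1a1 read 6.36 and 5.99 in control and 5.81 and 5.41 after recovery (-0.55 in set 1 and -0.58 in set 2, unadjusted p = 0.235, adjusted p = 1). Col25a1 was higher by 0.37 (7.24 and 7.66 against 7.67 and 7.97), Col3a1 differed by -0.48 and Col5a2 by -0.23. Col5a3 had the smallest p through 1 dim pool, 2.87 in the recovery rats of set 2 against 4.2 to 4.85 in the other 5 neocortical pools. Pools did not overlap in 13 of 40 genes (32.5%), against 24% of all probe sets. Against deprivation, recovery separated the pools of 4 genes (10%, against 23.4%), among them Col27a1 (0.62, from 4.18 and 4.57 to 5.0 and 4.99) and Ogn (-0.26). Col4a2 (-0.43), Col5a3 (-0.43) and Mgp (-0.18) changed sign between the sets.

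In the hippocampal formation the smallest p after deprivation belonged to Col15a1. It read 2.78 and 3.77 in control, 4.44 and 4.90 after deprivation and 4.0 and 3.91 after recovery. Both sets were higher after deprivation (1.66 and 1.13, mean 1.40 ± 0.33 SE, unadjusted p = 0.00168), and it did not pass over all probe sets (adjusted p = 0.9999, and 0.436 with the block). Its control mean of 3.27 lay under the filter level, so the size is not settled. In the neocortex it read 5.06 and 4.64 in control and 4.74 and 4.76 after deprivation. Col23a1 read 4.55 and 4.44 in control, 3.69 and 4.09 after deprivation and 4.48 and 4.84 after recovery, also without overlap (-0.61, unadjusted p = 0.0238). Col1a2 (-0.41), Fbn1 (0.30) and Col1a1 (-0.71) followed, and pools did not overlap in 7 of 40 genes (17.5%), against 19.3%.

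After recovery the hippocampal values of Col1a1, Ogn and Fmod were below control in both sets. Col1a1 read 5.44 and 5.13 in control, 5.25 and 3.91 after deprivation and 3.45 and 4.49 after recovery (-1.32 against control, unadjusted p = 0.015), with a recovery mean of 3.97 under the filter level. Ogn read 6.05 and 6.78 in control, 6.79 and 6.20 after deprivation and 5.53 and 5.86 after recovery (-0.72, unadjusted p = 0.0166). Fmod read 5.43 and 5.6 in control, 5.45 and 5.21 after deprivation and 4.82 and 5.17 after recovery (-0.52, unadjusted p = 0.0115). The recovery pools were the lowest of each gene apart from the deprived set 2 pool of Col1a1, and the adjusted p was 1 in all 3 (0.49 to 0.508 with the block). Col15a1 (0.68) and Fn1 (0.25) were above control, and pools did not overlap in 14 of 40 genes (35%), against 19.9%.

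Recovery against deprivation in the hippocampal formation gave Col23a1 (0.77, unadjusted p = 0.007), Ogn (-0.80, unadjusted p = 0.00969), Col9a2 (-0.48), Col15a1 (-0.72) and Fmod (-0.33) as the smallest p, each of the same sign in both sets and none past the adjusted threshold (adjusted p = 0.9999). Pools did not overlap in 10 of 40 genes (25%), against 23.2%. For Col23a1 and Col15a1 the deprived pools stood on the far side of both other states, while Ogn and Fmod were lowest after recovery. The meningeal marker mean in the hippocampal pools was 6.20 and 6.38 in control, 6.49 and 6.08 after deprivation and 6.24 and 6.17 after recovery, and the choroid plexus mean was 7.18 and 6.34, 8.03 and 6.04, and 6.74 and 5.84. The red cell mean was lower in both structures after recovery (6.61 and 6.98 in the neocortex and 6.73 and 6.66 in the hippocampal formation, against 7.49 to 8.38 in control). The part of these cells in the changes was not tested.

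**Figure D5:**
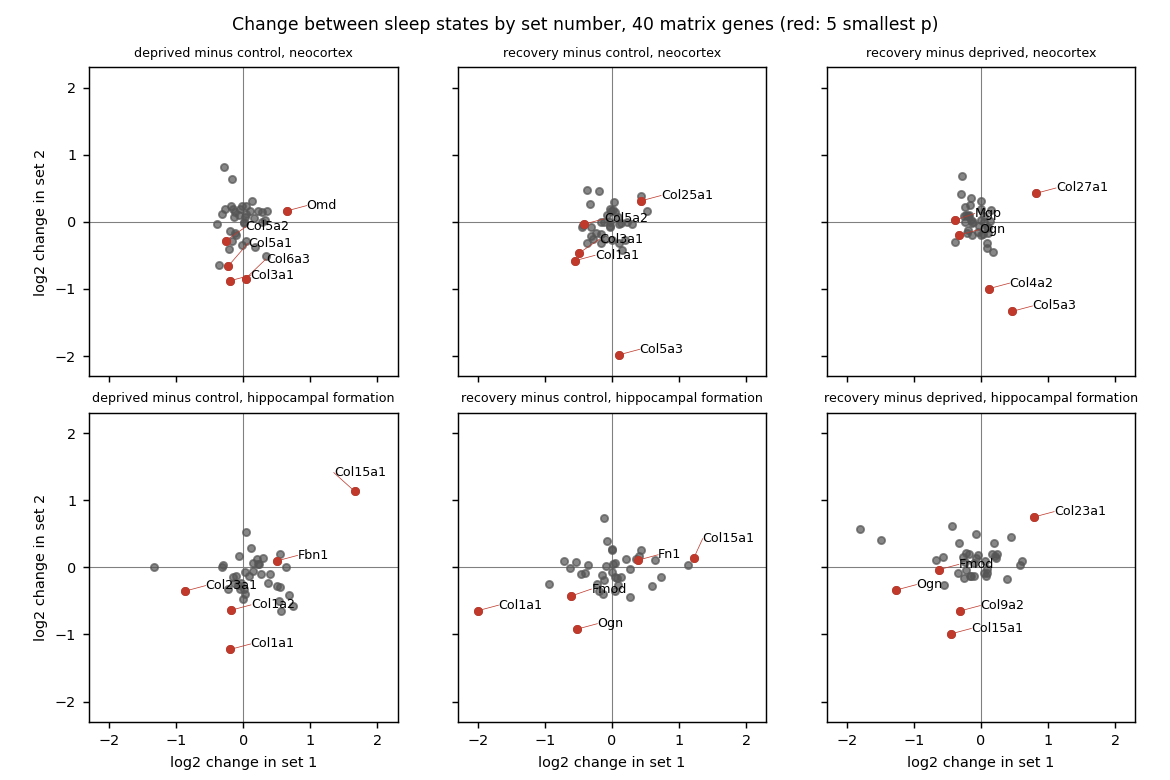
Log2 change between sleep states in set 1 (horizontal axis) and in set 2 (vertical axis) for the 40 tested matrix genes, in the neocortex (top) and the hippocampal formation (bottom); each point is a gene, and the 5 genes with the smallest p of each comparison are red and named. Most points lie within 1 log2 unit of the origin, and Col15a1 is at 1.66 and 1.13 for deprived against control in the hippocampal formation.

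The response of the matrix genes was also compared between the structures. The test of the difference, on the within-pool differences of the 6 animal pools, called 0 matrix genes and 0 probe sets in all for each of the 3 pairs of states (0%), and with the block 0, 0 and 2 probe sets (0.0107%), none a matrix gene. The smallest p for deprived against control was that of Col15a1, whose hippocampal change exceeded the neocortical one by 1.49 ± 0.50 (unadjusted p = 0.0204, adjusted p = 0.9999). Col23a1 (-0.80), Fbn1 (0.45), Col5a1 (0.53) and Vtn (-0.27) followed. For recovery against control these were Fbn1 (0.49), Fbln1 (-0.42), Col15a1 (0.94), Fmod (-0.46) and Ogn (-0.46), and for recovery against deprived Col23a1 (0.89, unadjusted p = 0.038), Ogn (-0.54), Igf2 (-0.62), Lum (0.28) and Col4a2 (0.41). A p that misses the threshold does not show that the structures respond alike.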

How the data were processed

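Biotin-labelled cRNA of 12 RNA pools was hybridised to 18 Affymetrix rat arrays, 2 per pool of set 1 and 1 per pool of set 2. Their number limits the precision. The deposited values are probe set intensities on a linear scale, made by the authors with MAS5 per the submitters' processing notes; its version and settings are not given in the sources used here. After trimming 2% at each end every array averaged 100.03, so the arrays had been scaled. Signals under 1 were set to 1, log2 values were averaged per pool, 57 control probe sets were removed, and the lowest 40% by mean (under a signal of 19.7) were left out, which kept 18625. Structures and interactions were tested with limma 3.58.1 (R 4.3.3, lmFit and eBayes with trend) on the differences of the 6 animal pools, and sleep states on all 12 pools in 6 groups. A replicate number names the first or second set of 6 rats within a state, and sets of different states hold different rats. Pools sharing a number deviated together from their groups, with correlations of 0.539 to 0.682 inside a structure and 0.182 to 0.387 across structures, so the set as a block is given where it changes a call. The tests were checked on simulated data. Figures were drawn with matplotlib 3.10.9.

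The members, roles, companion lists and markers were chosen with earlier results of these data known. Named with values are the called members (the 8 largest in each direction where more were called, or the 5 smallest p where none was), the 2 members of each role with the highest mean signal, with every pool, and up to 3 called members of a companion list. Other named members were chosen after their values were seen. All 87 probe sets carried symbols that matched RefSeq. Gjb6 stands in 2 marker lists.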

Additional observations from a re-analysis of the deposited data

How the results depend on the processing

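Over 922 alternatives of single named genes 878 kept direction and side of the threshold, 38 lost a call between the structures and 6 sleep-state values, none of them called, changed sign. The alternatives were another floor (16), other filters, quantile normalization, the mean of all probe sets, arrays kept separate, no trend, the set as a block, each pool left out, and set 2 left out. The structures gave 22 called genes, 30 with the set as a replicate block (paired by set), and 14 to 23 with an animal pool left out; the block called 0 matrix genes between sleep states, and the calls it changed between the structures are given with the genes and lists. The hippocampal median for deprived against control ran from -0.135 to 0.062 with a pool left out, and that for recovery against deprived was -0.13 without the hippocampal pools of set 2. Signs changed for Ogn (recovery against deprived neocortex, 0.0184 with the mean of all probe sets) and Col5a3 (same comparison, 0.12 with the floor of 16). With a pool left out, Col5a3 there ran from -1.33 to 0.47 and Mgp from -0.48 to 0.12, and for deprived against control neocortex Col3a1 ran from -1.13 to 0.067 and Col6a3 from -0.96 to 0.15. The causes were not tested. Without set 2 no residual degrees of freedom remain for the structures, so only values were computed (median -0.47). A signal under 19.7 leaves fold sizes unsettled.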
